A study of Mus musculus with 6 samples.

Results

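The mitochondrial ribosomal protein genes were taken as the genes whose name on the array is Mrpl or Mrps, a number and at most 1 further letter, with the unmarked probe of highest mean signal standing for each gene. The rule matched 76 of 34797 gene names, and 75 of the 76 had a probe without an outlier mark of the scanner software. All 75 were well above background on all 6 arrays, against 14991 of the 34574 gene names with an unmarked probe. By the known place of their proteins, 48 of the 75 belong to the large subunit, among them Mrps18a and Mrps30 despite their names, and 26 to the small subunit. The remaining gene, Mrps36, encodes a component of the 2-oxoglutarate dehydrogenase complex and not of the ribosome. The cells were mProx24, a cell line of C57B6 mouse kidney proximal tubule, grown in medium with fetal calf serum, and each of the 6 conditions had 1 single-colour Agilent array. The control, high glucose and high FFAs arrays (free fatty acids, given as palmitate) were at 20% oxygen. The hypoxia array was at 1% oxygen for 12 hours, triple stimuli combined high glucose, palmitate and hypoxia, and the last array added rapamycin, which inhibits the growth-controlling kinase mTORC1. Palmitate was at 150 µM for 9 hours, bound to 0.15% bovine serum albumin, and rapamycin was at 0.4 µg/ml for 12 hours ahead of it, per the labels, while the glucose concentration is not given in the sources used here.

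Mitochondria carry their own ribosome, which translates only the few proteins encoded by mitochondrial DNA, all of them subunits of the respiratory chain and the ATP synthase. Its RNAs come from mitochondrial DNA, while every one of its proteins is encoded in the nucleus, made in the cytosol and imported. Some of these proteins descend from bacterial ribosomal proteins and others were acquired only in mitochondria. The proximal tubule is rich in mitochondria and draws most of its ATP from oxidative phosphorylation.

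Each condition had a single array and thus no replicate check, so no difference has a replicate error and no test was made. Levels are log2 signal relative to the 75th percentile of the array, and a difference is 1 array minus another on that log2 scale. Among 73 bright probes printed in at least 10 spots, the median SD between spots of 1 array was 0.0596 (log2), which covers spot error only and neither culture nor labelling. The scanner file labelled high glucose matched the value table column labelled high FFAs, and the reverse, so these are called array A (high glucose in the scanner file) and array B, and the stimulus each received is unsettled. The 3 arrays at 20% oxygen lay on the first row of the slide and the 3 at 1% on the second, so oxygen and row of the slide cannot be told apart. Of 14 markers of the proximal tubule, 6 (Lrp2, Cubn, Aqp1, Ggt1, Slc4a4 and Pax8) were well above background on all 6 arrays and 7, among them Slc34a1, Slc5a2 and Hnf4a, on none. Of 11 markers of other kidney cells on the arrays, 3 (Aqp2, Kdr and Cd68) were so on all 6 and 7 on none. The summed level of the tubule markers was 4.97 for control, 4.54 for array A, 5.12 for array B, 5.23 for hypoxia, 4.59 for triple stimuli and 4.31 for triple stimuli with rapamycin, and that of the other markers lay between 3.13 with rapamycin and 3.49 in hypoxia. Both were thus lowest on the rapamycin array. Single markers differed by more than any of the 75 genes, as Slc4a4 was at 2.18 in hypoxia, Cd68 at 1.92 on array A, and Lrp2 at -1.49 and Aqp1 at -1.41 for rapamycin against control. The part of the markers in the results was not tested. As a check of the oxygen label, 8 of 8 measured hypoxia target genes were higher in hypoxia than in control, with a median difference of 2.59. On array A, at 20% oxygen, 7 of 7 of them were also higher than in control (median 0.91), while on array B 3 of 7 were (median -0.04).

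The promoters of 4 genes are shown first, because array A and triple stimuli held the highest levels of Mrps18b and Mrps26 while Mrpl18 and Mrps21 were below control on both. Other genes differed by as much as Mrps26. Each is 250 bases ahead of the RefSeq transcript start and 30 after it on build GRCm38.p6. The windows are chr17:35916411-35916690 (minus strand) for Mrps18b, chr2:130563507-130563786 (plus strand) for Mrps26, chr17:12916062-12916341 (minus strand) for Mrpl18 and chr3:95871485-95871764 (minus strand) for Mrps21. Capitals mark matches to GCATGCG, the core of the site of nuclear respiratory factor NRF1, or to CCGGAAG, a site of ETS factors such as GABP, on either strand.
Mrps18b: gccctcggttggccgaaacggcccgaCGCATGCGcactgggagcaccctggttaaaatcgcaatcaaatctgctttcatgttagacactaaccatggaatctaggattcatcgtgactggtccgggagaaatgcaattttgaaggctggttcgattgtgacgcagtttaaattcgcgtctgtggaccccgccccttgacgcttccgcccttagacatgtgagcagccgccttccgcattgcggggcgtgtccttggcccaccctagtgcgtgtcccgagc
Mrps26: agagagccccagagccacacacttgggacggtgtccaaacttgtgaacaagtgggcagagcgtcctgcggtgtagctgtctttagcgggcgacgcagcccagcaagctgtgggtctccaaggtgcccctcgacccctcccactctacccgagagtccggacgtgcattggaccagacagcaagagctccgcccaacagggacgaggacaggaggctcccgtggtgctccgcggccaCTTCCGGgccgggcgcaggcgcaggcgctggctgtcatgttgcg
Mrpl18: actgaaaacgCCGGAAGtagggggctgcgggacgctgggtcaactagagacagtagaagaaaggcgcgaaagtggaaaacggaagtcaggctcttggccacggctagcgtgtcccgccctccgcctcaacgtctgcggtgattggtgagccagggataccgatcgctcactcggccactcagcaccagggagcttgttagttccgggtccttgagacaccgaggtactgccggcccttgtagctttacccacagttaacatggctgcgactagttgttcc
Mrps21: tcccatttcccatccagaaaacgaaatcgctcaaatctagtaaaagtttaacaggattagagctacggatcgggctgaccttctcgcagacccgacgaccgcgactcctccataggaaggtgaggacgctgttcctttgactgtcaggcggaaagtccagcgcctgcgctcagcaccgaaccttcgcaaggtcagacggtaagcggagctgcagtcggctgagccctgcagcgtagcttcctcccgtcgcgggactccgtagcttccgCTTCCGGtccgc
In the Mrps18b window the NRF1 letters match both strands at overlapping places, and an ETS match of this gene lies after the printed bases. The ETS match starts 14 bases ahead of the transcript start in Mrps26 and 240 bases ahead of it in Mrpl18, and it follows the start in Mrps21, so the same letters occur in genes that differed in opposite directions.

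Over the RefSeq promoter table (300 bases, 250 ahead of the start and 50 after it), 67 of the 76 genes had an entry. CCGGAAG was found on either strand in 24 of the 67 genes (35.8%), against 9.93% of 27025 genes and 8.86% of all 32851 promoters. ATGGCGG, the core of the YY1 site, was found in 13 of 67 (19.4%) against 4.69% of genes and 4.05% of promoters, and GCATGCG in 8 of 67 (11.9%) against 4.01% of genes and 3.58% of promoters. The E-box CACGTG, the site of Myc and USF factors, was found in 5 of 67 (7.46%) against 8.09% of genes and 7.15% of promoters. ACGTG, the core of the hypoxia response element, which the E-box contains, was found in 16 of 67 (23.9%) against 21.8% of genes and 19.6% of promoters. The promoters of these genes had a mean GC content of 58.9%, against 53.8% over all promoters, and the share of this difference in the motif counts was not tested. A match describes the letters in the window and not a bound site.

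**Figure D1:**
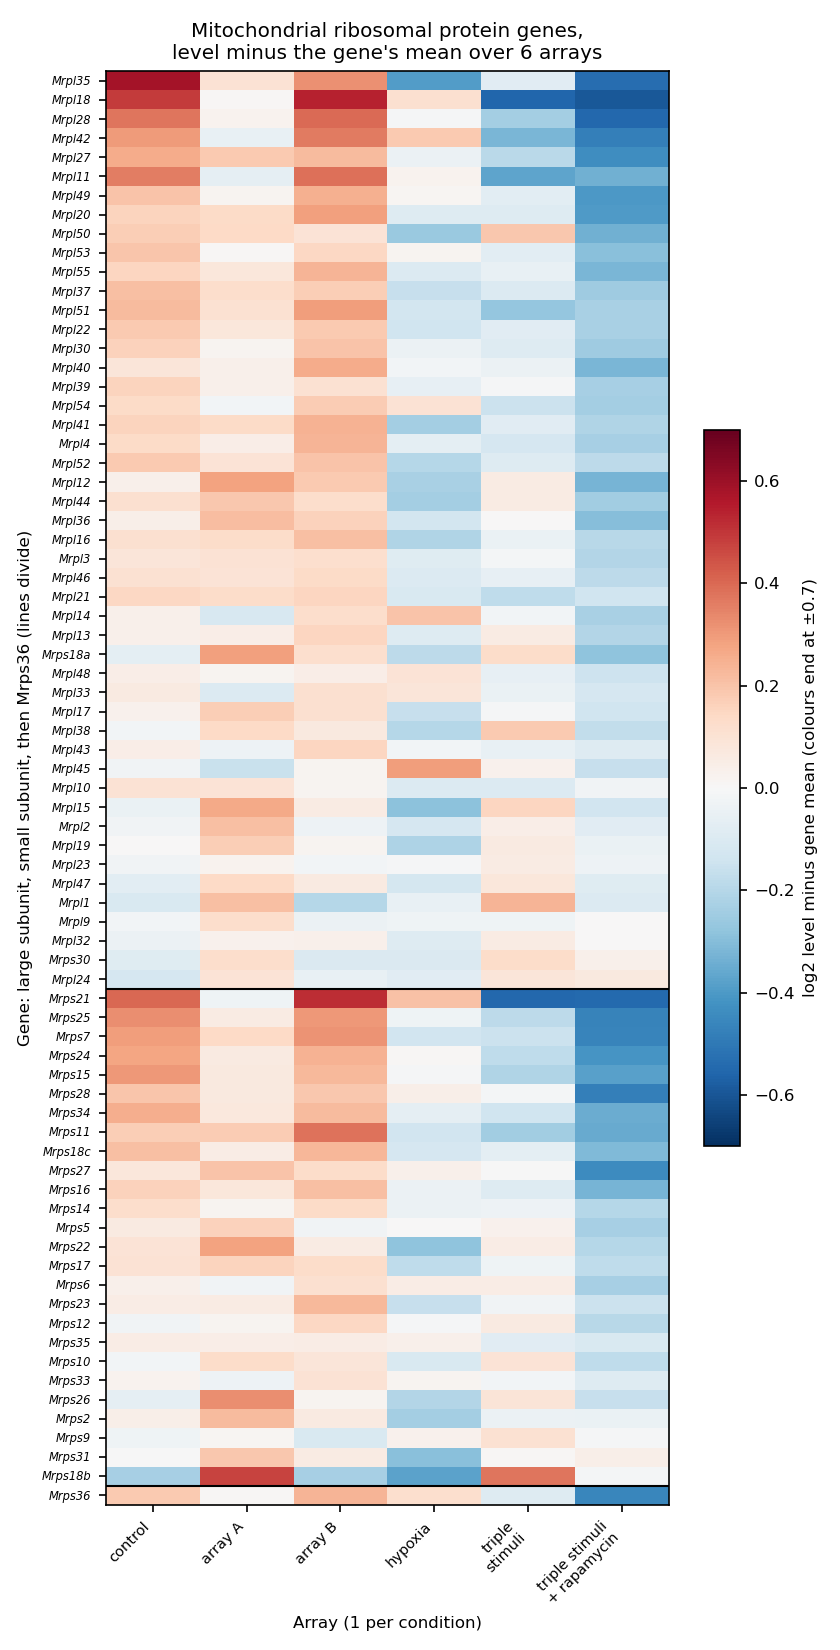
Each row is 1 of the 75 genes and each column 1 array, and colour is the log2 level minus the gene's own mean over the 6 arrays, red for above and blue for below, with large subunit genes above the first line, small subunit genes between the lines and Mrps36 last. The column of triple stimuli with rapamycin is the bluest, and it was the lowest of the 6 arrays for 49 of 75 genes.

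Most of the genes were lowest with rapamycin and highest at 20% oxygen. The median level over the 75 genes was 4.21 for control, 4.15 for array A, 4.29 for array B, 4.04 for hypoxia, 4.04 for triple stimuli and 3.82 for triple stimuli with rapamycin. The rapamycin array was the lowest of the 6 for 49 of the 75 genes (65.3%), against 26.5% of all genes measured on every array. It was the highest for 0 of the 75, against 14.8% of all genes. Hypoxia was the lowest array for a further 16 genes (21.3%), near the 19.2% of all genes. The highest array was array B for 32 genes (42.7%, against 22.9% of all genes), array A for 20 (26.7% against 16.7%) and control for 13 (17.3% against 13.4%). For 39 of the 75 genes (52.0%) all 3 arrays at 1% oxygen lay below all 3 at 20%, which held for 16% of all genes. The 39 included 23 large and 16 small subunit genes. The opposite separation, all 3 arrays at 1% oxygen above the others, was seen for 0 of the 75 genes and for 9.93% of all genes. The 3 arrays of an oxygen level are different conditions and not replicates, and in these bulk samples fewer cells with a transcript and less of it per cell cannot be told apart.

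Hypoxia against control shows the genes under low oxygen alone. The differences were small and nearly all in 1 direction, with 65 of 75 genes lower in hypoxia (background 54% of 16920 genes). The median difference was -0.20, or 1.15-fold lower, against -0.03 over all genes and -0.05 over the 10628 bright genes (well above background on all 6 arrays, mean level above 0). Of the 75 genes, 1 was at least 0.5 lower (background 5.11%) and 0 were at least 0.5 higher (background 9.87%). That gene was Mrpl35, a large subunit protein of bacterial origin, whose difference of -0.98 was 1.97-fold. Its level was 0.40 for control, -0.09 for array A, 0.13 for array B, -0.58 for hypoxia, -0.27 for triple stimuli and -0.72 for triple stimuli with rapamycin. Each of the 3 arrays at 1% oxygen was below each at 20%, and Mrpl35, on mm9 chromosome 6 (probe 71765277 to 71765336), was the lowest gene of the 75 both in hypoxia and with rapamycin relative to control. Next came Mrpl50, specific to mitochondria (-0.44), Mrps7, which in bacteria organises the head of the small subunit (-0.42), Mrpl41 (-0.40) and Mrpl28 (-0.38).

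A few genes were higher in hypoxia. Mrpl45, which lies at the exit of the peptide tunnel and ties the ribosome to the inner membrane, had the highest difference (0.32). Its level was 4.57 for control, 4.43 for array A, 4.61 for array B, 4.89 for hypoxia, 4.62 for triple stimuli and 4.43 for triple stimuli with rapamycin. Hypoxia alone stood out, and the combined stimuli array was level with array B. Mrpl14, a large subunit protein at the face between the subunits, followed with 0.17, and Mrps9 and Mrpl1 were both at 0.06 and Mrpl48 at 0.05. The small subunit gene Mrps12, whose protein lies at the decoding site, was at 0.02.

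The hypoxia arrays carried a gradient over the slide, since 9.75% of all genes in the first 64 of the rows of spots were at least 2-fold higher in hypoxia than in control and 2.12% in the last 64. Split into 6 bands of rows, 15 of 17, 8 of 9, 11 of 13, 11 of 13, 15 of 17 and 5 of 6 of the genes were lower in hypoxia, so the direction was seen in each band. The band medians lay between -0.28 in the first and -0.07 in the last.

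**Figure D2:**
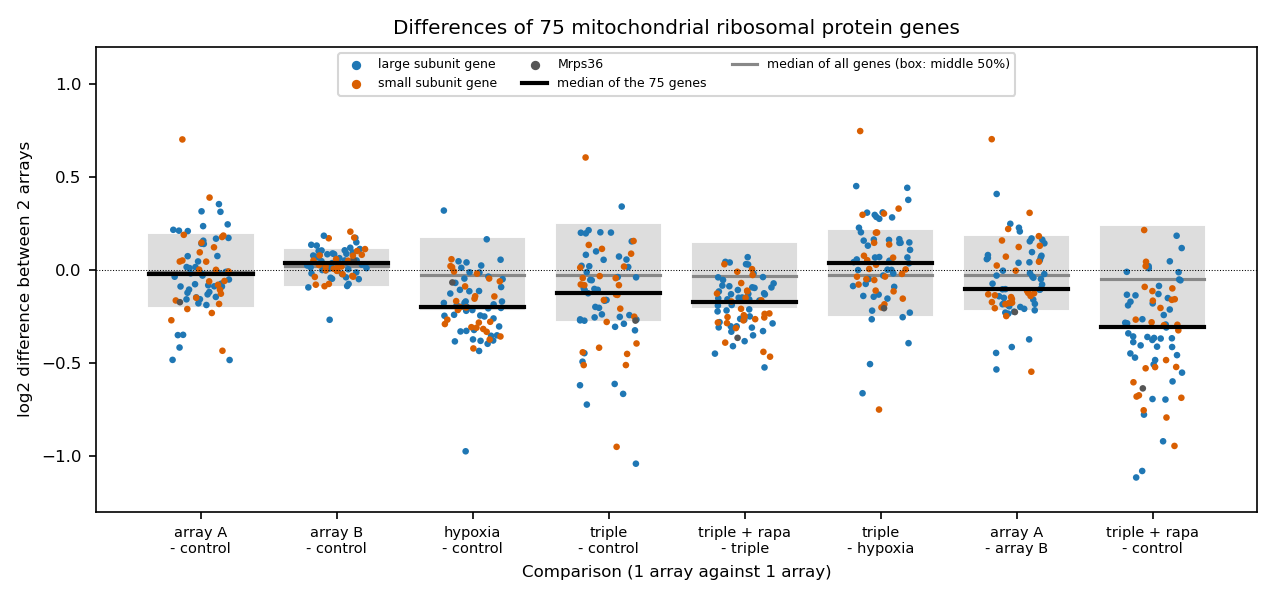
Each point is 1 of the 75 genes, the vertical axis is the log2 difference between 2 arrays and the horizontal axis names the comparison; the black line is the median of the 75 genes, the grey line the median of all genes and the box their middle 50%. The black line lies at -0.20 for hypoxia, -0.17 for rapamycin added to triple stimuli and -0.31 for rapamycin with triple stimuli against control, below the grey line in each.

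Rapamycin added to the triple stimuli shows the genes with an inhibitor of mTORC1 present under the combined stress. Of the 75 genes, 68 were lower with rapamycin (background 55% of 17055 genes), with a median difference of -0.17 against -0.03 over all genes and -0.05 over bright genes. The shift was broad and shallow, as 1 gene was at least 0.5 lower (background 6.61%) and 0 were at least 0.5 higher (background 5.54%). That gene was Mrpl50 (-0.52), whose level was 0.00 for control, -0.04 for array A, -0.08 for array B, -0.44 for hypoxia, 0.02 for triple stimuli and -0.51 for triple stimuli with rapamycin. Only hypoxia and rapamycin were low for its probe, but a second probe of Mrpl50, printed in 10 spots and left out for 2 marked readings, gave -0.25 with rapamycin and -0.04 for rapamycin against control. Mrps28, a small subunit protein, differed by -0.47, Mrpl35 by -0.45, Mrps27, an RNA-binding protein of the small subunit, by -0.44, and Mrps18a, a large subunit paralog of Mrps18b, by -0.41.

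Mrps28 was lowest with rapamycin (-0.67 against control), with smaller differences on array A (-0.13), in hypoxia (-0.15) and in triple stimuli (-0.21). Its level was 4.82 for control, 4.69 for array A, 4.82 for array B, 4.67 for hypoxia, 4.61 for triple stimuli and 4.15 for triple stimuli with rapamycin. The first 5 arrays lay within 0.21 of control, and the rapamycin array was 1.38-fold below triple stimuli. Mrps27 was also lowest with rapamycin. It was at 1.39 for control, 1.51 for array A and 1.44 for array B. It was at 1.34 for hypoxia, 1.31 for triple stimuli and 0.87 for triple stimuli with rapamycin. The 7 genes not lower with rapamycin were within 0.07 of triple stimuli, and the highest were Mrpl10, a protein of the stalk that recruits translation factors (0.07), Mrpl51 and Mrpl21 (both 0.04) and Mrpl9 and Mrps31 (both 0.03). A second probe of Mrpl10 was at -0.36 with rapamycin added. Within the 6 bands of rows, 14 of 17, 9 of 9, 12 of 13, 13 of 13, 15 of 17 and 5 of 6 genes were lower with rapamycin. The band medians ran from -0.09 in the first to -0.29 in the last, so the size was not shared by the bands. In the first band 7.3% of all genes were at least 2-fold higher with rapamycin and 7.21% at least 2-fold lower, against 0.154% and 0.501% in the last.

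The hypoxia and rapamycin comparisons share no array, since the first uses hypoxia and control and the other both triple stimuli arrays. Of the 75 genes, 58 (77.3%) were lower in both, against 30.8% of all genes, and 0 were higher in both, against 20.2% of all genes. As 65 of the 75 were lower in hypoxia and 68 with rapamycin added, most had to be lower in both. The joint counts thus restate both shifts and are no separate support. The size of the difference was not shared, with a Pearson r of 0.17 and a Spearman rho of 0.09 across the 75 genes, which are not independent and lie on the same arrays. Thus Mrps22, mutated in a human mitochondrial disorder, was at -0.37 in hypoxia and -0.25 with rapamycin, while Mrpl51 was at -0.35 and 0.04 and Mrps6 at 0.02 and -0.29.

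Triple stimuli with rapamycin against control, a comparison added after the data were seen, had the largest median of the 8 comparisons, -0.31 against -0.05 over all genes and -0.07 over bright genes. It shares the control with the hypoxia comparison and the rapamycin array with the one before, so it is no separate support. Of the 75 genes, 67 were lower (background 55.5% of 17460 genes), 20 by at least 0.5 (background 11.9%) and 2 by at least 1 (background 1.83%), while 0 were at least 0.5 higher (background 13.3%). The pair was Mrpl35 (-1.12, or 2.17-fold) and Mrpl18 (-1.08, or 2.12-fold). They were followed by Mrps21 (-0.95), Mrpl28 (-0.92) and Mrps25 (-0.79), though a second probe of Mrps25 was at 0.61. Mrps18b (0.22), Mrpl24, which lies near the tunnel exit (0.18), Mrps30 (0.12), Mrpl32, a protein matured by the m-AAA protease (0.05), and Mrps31 (0.04) were the highest.

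Triple stimuli against control had a median difference of -0.12 against -0.03 over all genes, with 53 of 75 genes lower (background 53.1% of 16889 genes). In the 6 bands of rows 16 of 17, 4 of 9, 8 of 13, 7 of 13, 13 of 17 and 5 of 6 genes were lower, and the band medians ran from -0.27 in the first to 0.06 in the second, so the direction was not seen in each band. Of the 75 genes, 8 were at least 0.5 lower, near the background of 11%, and 1, Mrps18b, was at least 0.5 higher (0.61, background 13.7%). Both backgrounds were larger here than in hypoxia alone, where they were 5.11% lower and 9.87% higher. The 8 were Mrpl18 (-1.04), Mrps21 (-0.95), Mrpl11, at the base of the factor-binding stalk (-0.72), Mrpl35 (-0.67), Mrpl42, specific to mitochondria (-0.62), Mrpl28 (-0.61), Mrps15 (-0.51) and Mrps25 (-0.51). A second probe of Mrps25 was at -0.01 in this comparison. Mrpl18 alone was at least 2-fold lower (2.06-fold, background 1.81%). After Mrps18b the highest were Mrpl1, of the mobile stalk at the tRNA exit (0.34), Mrps30 (0.21), Mrpl24 (0.20) and Mrpl15 (0.20). A second probe of Mrpl15 was at -0.004 in this comparison. Without the first 64 rows of spots, which held 17 of the 75 genes, 4 of the remaining genes were at least 0.5 lower. The share of all genes outside those rows is not given here, so this count has no background.

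Array A against control and triple stimuli against hypoxia also share no array. The first sets a single stimulus against none at 20% oxygen, and the other adds high glucose and palmitate together at 1%. Neither median was far from 0. The median was -0.02 for array A, with 43 of 75 genes lower (background 51.5% of 17697 genes), and 0.04 for triple stimuli against hypoxia, with 32 lower (background 53.5% of 16976 genes); the second median was -0.00019 under quantile normalization, so its sign depends on the scaling. At the level of single genes the same ones were high or low, with a Pearson r of 0.79 and a Spearman rho of 0.78 across the 75 genes. All 14991 genes measured on every array gave an r of 0.64 and bright genes 0.71, so genes outside the ribosome showed it as well. Of the 75 genes, 30 were lower in both (40.0%, against 38% of all genes) and 30 higher in both (40.0%, against 33.2%). All points share the same 4 arrays, and genes are not independent replicates.

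**Figure D3:**
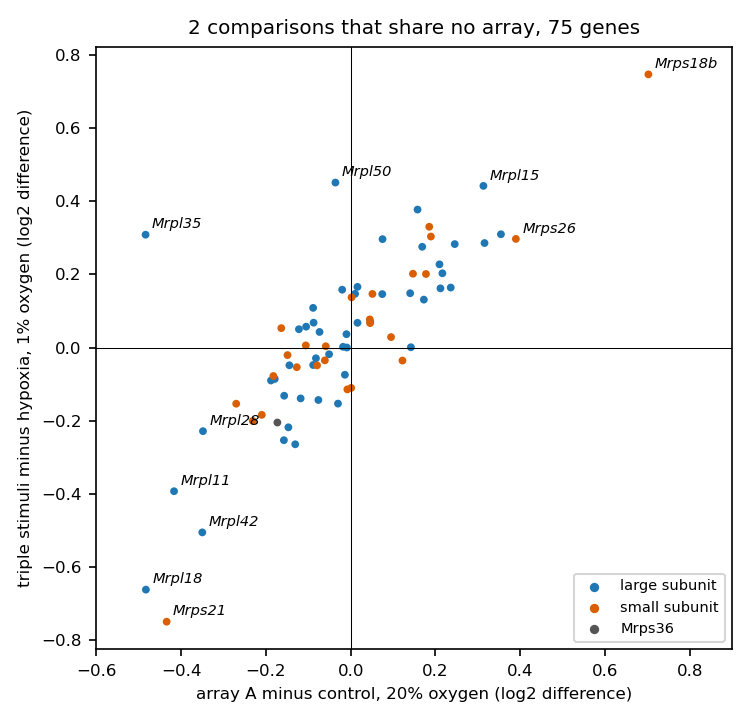
Each point is 1 of the 75 genes, with its log2 difference between array A and control at 20% oxygen on the horizontal axis and between triple stimuli and hypoxia at 1% oxygen on the vertical axis, coloured by subunit. Mrps18b lies alone at the upper right (0.70 and 0.75), and Mrps21, Mrpl18, Mrpl42, Mrpl11 and Mrpl28 lie at the lower left.

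Mrps18b, 1 of 3 mammalian paralogs of a bacterial small subunit protein, was the only gene of the 75 at least 0.5 higher on array A (0.70, or 1.63-fold; background 8.01%) and in triple stimuli against hypoxia (0.75, or 1.68-fold; background 10.8%). Its level was 5.07 for control, 5.78 for array A, 5.07 for array B, 4.93 for hypoxia, 5.68 for triple stimuli and 5.29 for triple stimuli with rapamycin. Array A and triple stimuli stood apart from control, array B and hypoxia, and the rapamycin array lay between. Its other probes, of which there were 2, gave 0.75 and 0.85 for array A, 0.89 and 0.90 for triple stimuli against hypoxia, and -0.30 and -0.40 for rapamycin, where the probe used gave -0.39. The probe used lies on mm9 chromosome 17, 36047331 to 36047390. The second of the other probes (36047326 to 36047385) overlaps most of it and is no separate check, while the first lies elsewhere (36051313 to 36051461). The paralog Mrps18a had the same signs as Mrps18b at a smaller size, with 0.35 for array A and 0.31 for triple stimuli against hypoxia. With rapamycin added Mrps18a was at -0.41. The other paralog, Mrps18c, was at -0.16, 0.05 and -0.24 in these comparisons.

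Smaller differences of the same sign were also seen in Mrps26, specific to mitochondria, at 0.39 and 0.30 in the 2 comparisons, with a second probe at 0.32 and 0.50. Mrps26 was at 5.17 for control, 5.56 for array A, 5.25 for array B, 5.03 for hypoxia, 5.33 for triple stimuli and 5.07 for triple stimuli with rapamycin. Array A and triple stimuli were again its highest arrays. Mrpl1 (0.32 and 0.29), Mrpl15, an early-binding large subunit protein (0.31 and 0.44), Mrpl12, the stalk protein that contacts elongation factors (0.25 and 0.28), Mrpl38 (0.16 and 0.38) and Mrps22 (0.19 and 0.33) had like values. A second probe of Mrpl15 was at 0.46 in triple stimuli against hypoxia but only at 0.05 on array A. The probe used for Mrpl50 had 0.45 in triple stimuli against hypoxia but -0.04 on array A. Its probe of 10 spots, left out for 2 marked readings, had 0.51 and 0.25 there.

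The opposite pattern was led by Mrps21 and Mrpl18. Mrps21, a small subunit protein of bacterial origin on mm9 chromosome 3 (probe 95666577 to 95666636), was at 5.84 for control, 5.40 for array A, 5.95 for array B, 5.64 for hypoxia, 4.89 for triple stimuli and 4.89 for triple stimuli with rapamycin. Both arrays with all 3 stimuli lay far below the others, array A was next, and the difference with rapamycin added was 0.00. Mrpl18, whose bacterial homolog binds the small RNA of the large subunit, was at 4.33 for control, 3.85 for array A, 4.38 for array B, 3.95 for hypoxia, 3.29 for triple stimuli and 3.25 for triple stimuli with rapamycin (mm9 chromosome 17, probe 13104338 to 13104397). It was low on the same arrays as Mrps21 and lower in hypoxia as well. Both genes had a single probe, so no second probe bears on them.

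For array A against control the 5 lowest genes were Mrpl35 and Mrpl18 (both -0.48), Mrps21 (-0.43), Mrpl11 (-0.42) and Mrpl42 (-0.35), and 0 of the 75 were at least 0.5 lower (background 6.56%). For triple stimuli against hypoxia, 3 genes were at least 0.5 lower (background 10.3%), namely Mrps21 (-0.75), Mrpl18 (-0.66) and Mrpl42 (-0.51), followed by Mrpl11 (-0.39) and Mrpl45 (-0.26). Mrpl11 was at 5.35 for control, 4.93 for array A, 5.38 for array B, 5.02 for hypoxia, 4.62 for triple stimuli and 4.65 for triple stimuli with rapamycin. Like Mrps21 it was lowest under the 3 stimuli with or without rapamycin. Mrpl35 departed from the pattern, at -0.48 on array A but 0.31 in triple stimuli against hypoxia.

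**Figure D4:**
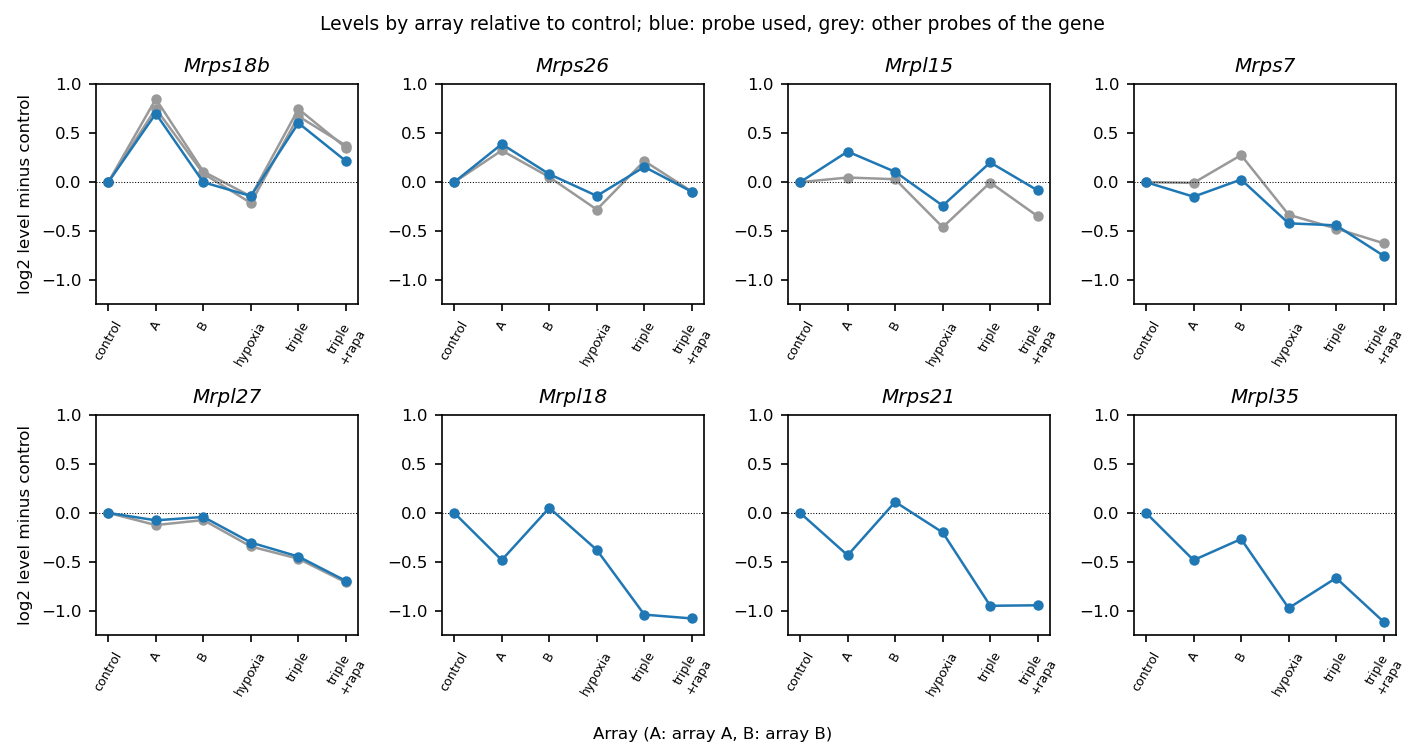
Each panel is 1 gene, with the 6 arrays on the horizontal axis and the log2 level minus the control array on the vertical axis; blue is the probe used and grey are other unmarked probes of the gene. The 3 probes of Mrps18b, of which the probe used and another overlap, and both probes of Mrpl27 run together, while Mrpl18, Mrps21 and Mrpl35 have 1 probe each.

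Array B was the array most like control. The median difference was 0.04 against 0.02 over all genes, 52 of 75 genes were higher (background 55.9% of 17092 genes), and 0 were 0.5 apart in either direction (background 2.63% higher and 2.46% lower). The highest were Mrps11 (0.21), Mrps18a (0.18), Mrps23, Mrpl40 and Mrps12 (each 0.17). The lowest were Mrpl35 (-0.27), Mrpl1, Mrps5 and Mrpl10 (each -0.09) and Mrps9 (-0.08). Set against each other, array A was below array B for 48 of 75 genes (background 53.8% of 17128 genes), with a median of -0.10. There 1 gene was at least 0.5 higher (background 8.3%), Mrps18b at 0.70, followed by Mrpl1 (0.41), Mrps26 (0.31), Mrpl2 (0.25) and Mrps30 (0.23). The 2 genes at least 0.5 lower (background 7.59%) were Mrps21 (-0.55) and Mrpl18 (-0.53), followed by Mrpl11 (-0.45), Mrpl42 (-0.41) and Mrpl28 (-0.37).

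Both subunits had medians below 0 in hypoxia and with rapamycin. The large subunit genes had a median of -0.19 in hypoxia, -0.15 with rapamycin added and -0.32 with rapamycin against control, and the small subunit genes -0.20, -0.23 and -0.30. The difference between the subunits with rapamycin added was not tested. Genes with a bacterial homolog and those specific to mitochondria had medians of -0.20 and -0.18 in hypoxia and of -0.30 and -0.36 with rapamycin against control. Of the 48 large subunit genes 41 were lower in hypoxia, and of the 26 small subunit genes 23, against 54% of all genes. Promoters with and without an ETS match had medians of -0.19 (23 genes) and -0.20 (43 genes) in hypoxia and -0.15 and -0.17 with rapamycin added. The 13 genes with a YY1 match were all lower in hypoxia (median -0.28), as were 43 of the 53 without (median -0.20). Mrpl35 and Mrpl50 are among the 13. Also lower in hypoxia were 5 of 5 genes with an E-box, 7 of 8 with an NRF1 match and 14 of 16 with ACGTG. Without these matches it was 51 of 61, 49 of 58 and 42 of 50 genes. With rapamycin added, medians with and without a match were -0.22 and -0.16 for YY1, and -0.24 and -0.16 for the E-box. They were -0.25 and -0.16 for ACGTG, and -0.10 and -0.19 for NRF1. The motif groups overlap and their differences were not tested.

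The span over the 6 arrays had a median of 0.45, against 0.44 in bright genes of the whole array. The widest were Mrpl18 (1.13), Mrpl35 (1.12), Mrps21 (1.06), Mrpl28 (0.95) and Mrps18b and Mrpl42 (both 0.84). Mrpl28, a large subunit protein, was at 3.73 for control, 3.38 for array A, 3.75 for array B, 3.34 for hypoxia, 3.12 for triple stimuli and 2.81 for triple stimuli with rapamycin, so it was lower under each stimulus but that of array B and lowest with all of them and rapamycin. The narrowest was Mrpl23, which lies at the tunnel exit (0.09), with 4.21 for control, 4.26 for array A, 4.22 for array B, 4.23 for hypoxia, 4.30 for triple stimuli and 4.20 for triple stimuli with rapamycin. Mrpl32 (0.15), Mrps35 and Mrpl9 (both 0.16) and Mrps33 (0.19) were next. Genes of the same particle thus spanned from 0.09 to 1.13.

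Some of these genes are linked to inherited mitochondrial disease, and those given here are examples and not a counted list. Mrps16 was at 5.04 for control, 4.96 for array A, 5.09 for array B, 4.84 for hypoxia, 4.79 for triple stimuli and 4.56 for triple stimuli with rapamycin. It was lower on all 3 arrays at 1% oxygen, and lowest with rapamycin. Mrps34 (-0.32 in hypoxia and -0.60 with rapamycin against control), Mrpl44 (-0.35 and -0.36), Mrpl3 (-0.17 and -0.29), Mrpl12 (-0.26 and -0.36) and Mrps7 (-0.42 and -0.75) were lower in both. Mrps2 was at -0.28 and -0.09.

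Where a gene had further probes, they mostly gave the same sign. The 25 other unmarked probes that were well above background on all 6 arrays belonged to 23 genes. Of these probes 24 were below 0 in hypoxia and 21 with rapamycin added, with medians of -0.27 and -0.19, where the probes used for the same genes had -0.20 and -0.16. In hypoxia 23 of 25 had the sign of the probe used, and with rapamycin 20. Among the 25, a probe each of Mrpl23, Mrpl40 and Mrps18b overlaps the probe used and is no separate check. Mrpl34, the gene left out for 1 marked reading among the 10 spots of its only probe, was at 4.32 for control, 4.09 for array A, 4.43 for array B, 4.15 for hypoxia, 3.81 for triple stimuli and 3.68 for triple stimuli with rapamycin, with an SD between spots of 0.03 to 0.08. It was lowest on both arrays with all 3 stimuli, at -0.50 in triple stimuli and -0.64 with rapamycin against control.

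Proteins of the same ribosome whose genes carry other names had like values. Dap3 (a GTP-binding protein), Chchd1, Aurkaip1 and Ptcd3 are of the small subunit, and Gadd45gip1, Mrp63 and Ict1, a peptidyl-tRNA hydrolase, of the large. All 7 were lower with rapamycin added (median -0.18; 55% of all genes were lower) and with rapamycin against control (median -0.35; 55.5% of all genes), and 5 of 7 were lower in hypoxia (median -0.16; 54% of all genes). With rapamycin added, Ptcd3 was at -0.42, Gadd45gip1 at -0.37, Chchd1 at -0.34, Aurkaip1 at -0.18, Ict1 at -0.16, Mrp63 at -0.15 and Dap3 at -0.09. In hypoxia Mrp63 was the lowest (-0.35) and Gadd45gip1 (0.07) and Dap3 (0.04) were above 0.

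**Figure D5:**
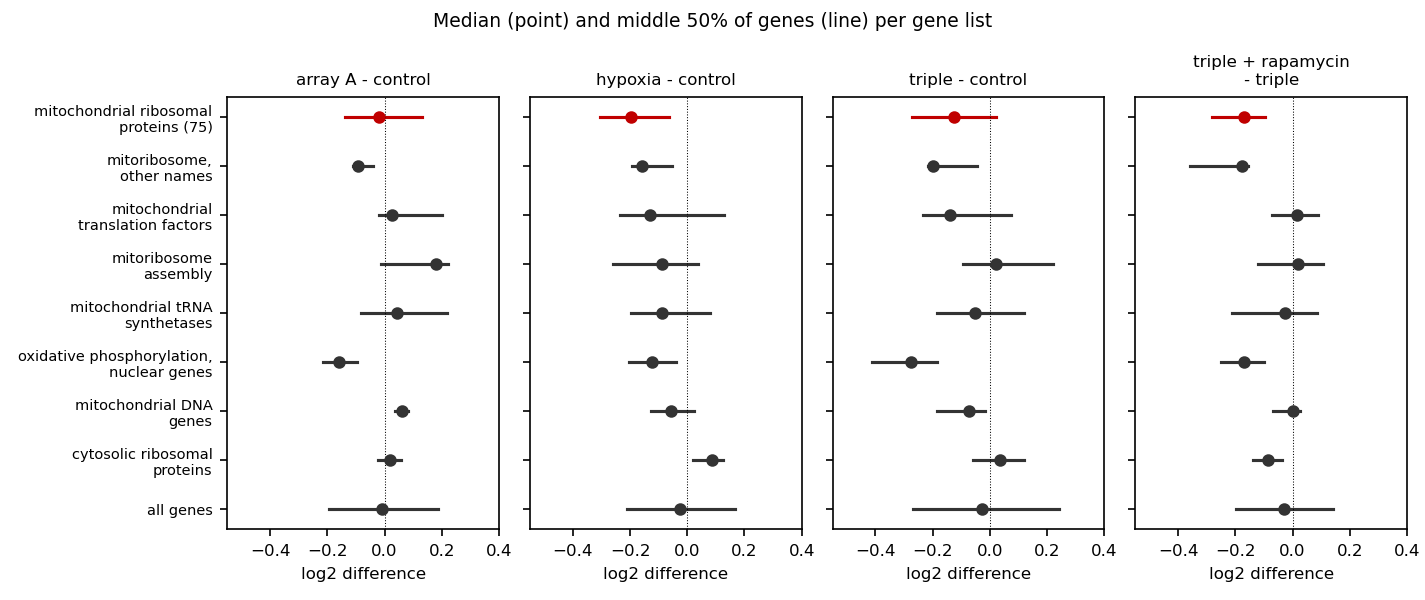
Each row is a gene list and each panel a comparison; the point is the median log2 difference of the list's measured genes and the line their middle 50%, with the 75 genes in red. In the rapamycin panel the 75 genes and the nuclear genes of oxidative phosphorylation both lie at -0.17, and translation factors and assembly factors lie at 0.02.

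Genes for the machinery around the ribosome had medians nearer 0 with rapamycin added. Over all genes 54% were lower in hypoxia, 55% were lower with rapamycin added and 48.5% were higher on array A. Of the mitochondrial translation factors, 14 measured in hypoxia against control had a median of -0.13 (9 lower) and 15 measured with rapamycin added a median of 0.02 (6 lower; -0.04 under median scaling). Their largest differences were in Mrrf, the ribosome recycling factor, measured on only 3 arrays (0.70 on array A), Mtrf1l, a release factor (0.54 in triple stimuli against hypoxia), 2810006K23Rik, now named Mtrfr (-0.52 there), and Mtif3, an initiation factor (-0.44 there). The 27 assembly factors had a median of 0.18 on array A, where 19 were higher, of -0.09 in hypoxia (19 lower) and of 0.02 with rapamycin added (13 lower; -0.03 under median scaling). Among them Ftsj2, an rRNA methyltransferase, was at -0.78 in triple stimuli, Mpv17l2 at -0.75 with rapamycin against control, Trub2, a pseudouridine synthase, at -0.63 in hypoxia, and Mrm1, an rRNA methyltransferase, at 0.56 in triple stimuli against hypoxia. The 16 mitochondrial tRNA synthetases had medians of -0.09 in hypoxia (10 lower) and -0.03 with rapamycin added (8 lower; 0.02 under quantile normalization), and the largest differences were in Mars2 (0.73 in triple stimuli against hypoxia), Lars2 (-0.66 with rapamycin against control), Wars2 (0.55 for array A against array B) and Sars2 (-0.53 with rapamycin against control).

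Of 20 regulators of mitochondrial biogenesis, 15 were higher on array A (median 0.12; 48.5% of all genes were higher) and 15 higher in triple stimuli against hypoxia (median 0.21; 46.5% of all genes). Myc, a transcription factor of growth, was at 1.45 on array A and 2.05 in triple stimuli, and at 0.02 with rapamycin added. Pprc1, a coactivator of the PGC-1 family, had -0.98 in hypoxia against control and 1.26 in triple stimuli against hypoxia, and the matrix protease Lonp1 was at 1.08 and 0.47. Ppargc1a, which encodes PGC-1 alpha, was well above background on 3 arrays and was 0.80 higher on array A than on array B, a lower bound as array B was below background.

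The products of the mitochondrial ribosome work beside nuclear subunits of oxidative phosphorylation. Of 75 measured nuclear genes of that list, 66 were lower in hypoxia (median -0.12; 54% of all genes), 70 with rapamycin added (median -0.17; 55%) and 72 with rapamycin against control (median -0.46; 55.5%). On array A, where the ribosomal genes had a median of -0.02, 71 of 76 of these genes were lower (median -0.16; 51.5% of all genes). Exceptions were the tissue-specific isoforms Cox6b2 (2.31 in hypoxia), Cox6a2 (1.72 on array A, a lower bound as control was below background) and Cox7a1 (1.12 in hypoxia), and Ndufv3, a complex I subunit (1.09 in hypoxia). The 13 protein genes of mitochondrial DNA had a median of -0.06 in hypoxia and 0.00 with rapamycin added (0.11 under quantile normalization and -0.05 under median scaling). Among them ND6, read from the opposite strand to the others, stood at 2.35 in triple stimuli against control, and ND5 (-0.45), ND1 (-0.24) and COX1 (0.26) were nearer 0.

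The ribosomal proteins of the cytosol were set beside them as the other ribosome of the cell. In hypoxia 61 of 78 were higher (median 0.09; 46% of all genes were higher), against 10 of the 75 mitochondrial ones, but the cytosolic median was -0.13 under quantile normalization and -0.07 under median scaling. With rapamycin added 65 of 77 cytosolic genes were lower, against 55% of all genes (median -0.09; 0.04 under quantile normalization and 0.05 under cyclic loess), while the mitochondrial median was below 0 under each scaling. The largest differences were in Rpl10l (2.59 in hypoxia, a lower bound as control was below background), Rps27l (-0.76 with rapamycin against control), Rpl10a (0.43 in triple stimuli) and Rps13 (-0.36 with rapamycin against control).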

How the data were processed

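Per the file headers, the authors read the arrays in 1 colour and subtracted background with Feature Extraction of Agilent, version 10.7.3.1, and deposited a linear signal intensity for each spot, unscaled between arrays. The deposited value table holds a ratio for each probe, read from its values as that signal over a 75th percentile taken per array. Its columns matched the scanner files for 4 arrays under their own labels and for 2 crosswise (arrays A and B).

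Here the log2 signal was reduced by the array's 75th percentile of non-control spots and averaged over spots of a probe. Of 55681 probes, 323 with a non-uniformity or population outlier mark on any array were left out, and the brightest probe stood for a gene name. A gene entered a comparison if well above background on at least 1 of its 2 arrays, the dim side raised to that array's lowest well-above-background level, and was left out where this put the dim side at or over the other. Differences of 0.5 (1.41-fold) and 1 (2-fold) were counted. Named were, per comparison, the 5 highest and 5 lowest of the 75 genes, the 5 widest and narrowest, every gene past 0.5 where 10 or fewer were, all 7 genes of the ribosome with other names, 4 per further list, and disease genes as examples. The genes and lists were chosen with earlier results of these data known. The genes of mitochondrial DNA were found by the names the files give them, and cytosolic ribosomal genes by a name pattern without their kinases. Of 76 symbols, 76 matched a RefSeq symbol, and 67 had an entry in the promoter table. Probe positions are on mm9 as the files give them, and exons or untranslated regions were not annotated, as no annotation of that build was used here. Settings tried besides were 12 planned and 2 added after the data were seen. Python 3.11.15, pandas 2.3.3, R 4.3.3 and limma 3.58.1 were used, the last for normalization only, and the code was tested on simulated data. The number of arrays limits the precision.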

Additional observations from a re-analysis of the deposited data

How the results depend on the processing

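The medians and counts of the 75 genes were recomputed under the 12 planned settings and the 2 added ones. The median stayed below 0 in hypoxia against control (-0.35 to -0.13), in triple stimuli against control (-0.24 to -0.08), with rapamycin added (-0.25 to -0.12) and for rapamycin against control (-0.47 to -0.24). For triple stimuli against hypoxia the median turned from 0.04 to -0.00019 under quantile normalization. Scaling by the array median lowered the median of all genes to -0.17 in hypoxia, -0.13 in triple stimuli and -0.20 for rapamycin against control, and that of the 75 genes to -0.35, -0.24 and -0.47. Relative to all genes the latter were -0.18, -0.10 and -0.27, against -0.17, -0.10 and -0.26 in the reported setting. Under the same scaling the share of the 75 genes below 0 was 69.3% for array A, 97.3% in hypoxia, 85.3% in triple stimuli, 98.7% with rapamycin added and 97.3% for rapamycin against control. The share of all genes below 0 under median scaling is not given here. As the median of all genes fell too, in the comparisons given above, these shares include that shift. Under normexp background correction it was 93.3% in hypoxia and 42.7% for array B, and under quantile normalization 77.3% with rapamycin added. Counts past 0.5 depended more on the setting. The 20 genes lower for rapamycin against control were 36 under median scaling and 8 in the last bands of rows, where fewer genes were measured. The 8 lower in triple stimuli were between 3 and 14, the 1 lower in hypoxia between 0 and 12, and the 1 lower with rapamycin added between 0 and 3. The shares of all genes past 0.5 under these settings are not given here, so these counts have no background. Of 504 recomputed differences of single genes past 0.5, 470 stayed past it, 34 did not and 0 changed sign. The lowest in size was Mrpl50 for rapamycin against control, -0.04 with its marked probe, and Mrps25 was at -0.09 there over both of its probes. No paired analysis was possible because each condition had 1 array. Slide row, culture and labelling differences between the arrays were not tested, and the other labels of arrays A and B were left as they stand.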

Other observations

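Some further probes of these genes did not follow the probe used. The second probe of Mrps25, well above background on all 6 arrays, was at 0.27 in hypoxia and 0.61 for rapamycin against control, where the probe used was at -0.36 and -0.79. The second probe of Mrpl41 was at 0.50 with rapamycin added, where the probe used was at -0.13. The second probe of Mrpl10 was at -0.36 with rapamycin added, where the probe used, the highest of the 75 genes in that comparison, was at 0.07. Second probes of Mrpl9 and Mrpl21 were well above background on 0 arrays and gave no level.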
